A study of Macaca fascicularis with 6 samples.

Results

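The genes described here belong to the unfolded protein response and to the protein folding machinery of the endoplasmic reticulum (ER), measured in macaque liver. They were chosen by name: 36 human gene symbols were listed, and a gene was counted as found where the array annotation gave a probe set that symbol and no other. Of the 36 genes, 35 had such a probe set, out of 19775 genes with a probe set of their own on the whole array. SYVN1, the ubiquitin ligase of ER-associated degradation, shared its probe set with a second symbol and was not analysed here. Where a gene had several probe sets, the brightest over the 6 arrays stood for it, and 34 of the 35 genes were bright enough to be tested, out of 13349 genes tested in all. ASNS, the asparagine synthetase, was the 1 gene below the filter. All 35 symbols also occur in the macaque gene annotation.

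Liver tissue came from 6 cynomolgus macaques (Macaca fascicularis), each on an Affymetrix array of its own. The ligand group was 3 animals given an LXR ligand, where LXR is the liver X receptor, a nuclear receptor for oxysterols; their array titles carry the letters GW, which are not explained, and the vehicle group was 3 animals given vehicle. Strain, sex, age, dose, length of treatment and the identity of the ligand are not given in the sources used here. The array was designed on human transcripts, so a macaque sequence that differs from the human probe can give a low signal, and a signal is no measure of one gene's level against another's.

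The ER folds secreted and membrane proteins, and a hepatocyte secretes most of the proteins of blood plasma, so its ER is large. When unfolded proteins build up, the sensors IRE1 (gene ERN1), PERK (gene EIF2AK3) and ATF6 are released from the chaperone BiP (gene HSPA5). IRE1 then splices the XBP1 messenger, ATF6 is cut to free a transcription factor, and PERK slows translation while favouring that of ATF4. XBP1 and ATF6 drive chaperones and degradation factors, and ATF4 drives genes of amino acid supply and of stress. LXR acts on membrane lipid composition through its target genes, which is one known tie between the receptor and the ER. Splicing, cleavage and phosphorylation are not measured by these arrays, which read the level of messenger RNA alone.

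The 3 known LXR targets read as a check of the treatment were higher in each animal given the ligand than in any given vehicle. SREBF1, a target of LXR and a driver of fatty acid synthesis, had signals of 3826, 1289 and 3450.1 on ligand arrays 1 to 3, against 337, 408 and 541 on vehicle arrays 1 to 3. The groups did not overlap for SREBF1, nor for the targets ABCG1 and MYLIP, whose log2 differences were 1.31 ± 0.25 (SE) and 1.36 ± 0.32 (SE). No probe set of the array passed limma's test with Benjamini-Hochberg adjustment, 0 of 27304 or 0%, and 1523 of them (5.58%) had an unadjusted p under 0.05. Ligand array 1 stood apart from the other 5 on the first principal component, at -89.8 against 0.632 to 36.8. ALB, the albumin of hepatocytes, was bright on every array, with signals of 156353, 129327 and 148047 with the ligand and 121612, 153778 and 136323 with vehicle. In a piece of tissue, fewer cells of a type and less RNA per cell cannot be told apart.

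No member of the ER set passed either: limma's adjusted p over all probe sets ran from 0.829 to 0.999 for the 34 tested genes, so each difference given below is a value with its error and not a call. Their log2 differences, ligand minus vehicle on the scale of log2(signal + 16), had a median of 0.20, against 0.0027 over all tested genes. With the ligand, 24 of the 34 were higher and 10 lower, where 50.3% of all tested genes were higher. Including ASNS, 25 of 35 were higher, with a median of 0.24. On 5 of the 34 genes the lowest ligand array lay above the highest vehicle array, where 6.21% of all tested genes did so. These were SDF2L1, CALR, PDIA3, HERPUD1 and EIF2AK3. On 1 gene, ATF3, the highest ligand array lay below the lowest vehicle array, against 5.21% of all tested genes. An unadjusted p under 0.05 was reached by 3 members in the upward direction, where the share over all tested genes was 3.70%, and by 0 in the downward direction, where it was 2.42%. Without ligand array 1 the median over the 34 genes was 0.086, and without vehicle array 3 it was 0.10.

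**Figure D1:**
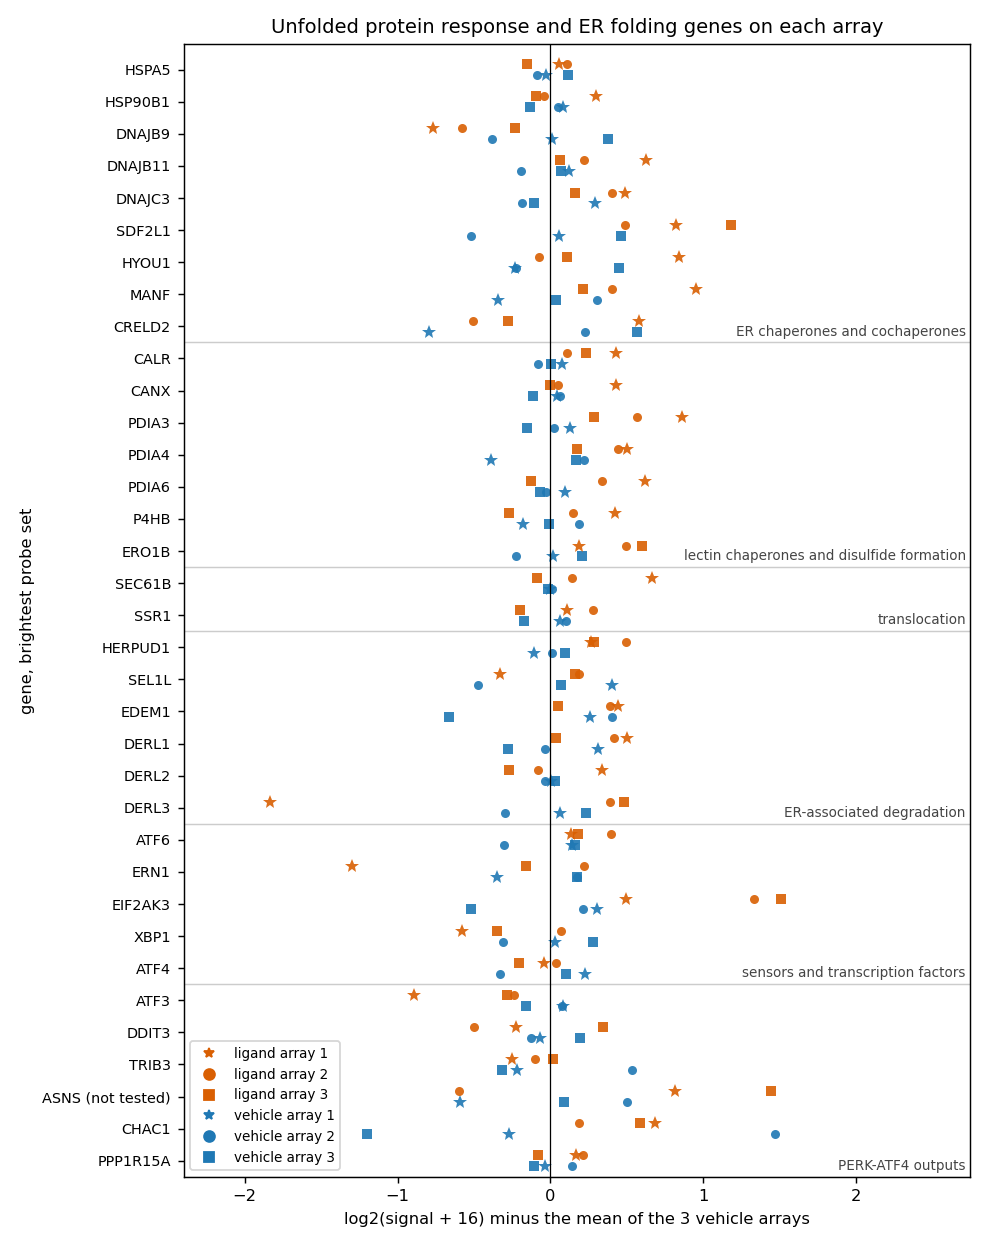
Each point is a gene on an array, as log2(signal + 16) minus the mean of the 3 vehicle arrays, with ligand arrays in orange above vehicle arrays in blue and the 35 genes grouped by role. The orange star, ligand array 1, is the highest of the 6 points for most genes in the top 2 blocks, which hold chaperones and disulfide enzymes, and the lowest for DNAJB9, DERL3, ERN1, XBP1 and ATF3.

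Most ER chaperones and helper proteins had somewhat higher signals with the ligand, but the means of BiP, the central one, were nearly level. Of these 9 genes 7, with HSPA5 and HSP90B1 counted among them, were higher and 2 lower, at a median log2 difference of 0.29. That median was 0.017 without ligand array 1, and 0.18 without vehicle array 1 and 0.18 without vehicle array 2. HSPA5, which encodes BiP, the Hsp70 chaperone of the ER and the usual gauge of the response, had signals of 18964, 19655 and 16404 on ligand arrays 1 to 3, against 17866, 17189 and 19728 on vehicle arrays 1 to 3. The groups overlapped for HSPA5, with the highest and second highest values on vehicle array 3 and ligand array 2. Its log2 difference was 0.0044 ± 0.16 (SE), with a 95% interval of -0.35 to 0.36, and it turned to -0.017 when arrays were centred on their medians. HSP90B1, the Hsp90 chaperone of the ER, likewise differed by less than its error, at 0.056 ± 0.18 (SE) and an interval of -0.34 to 0.45.

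SDF2L1, which works with the ER Hsp40 proteins to keep clients soluble, had signals of 1995, 1575 and 2566 on ligand arrays 1 to 3, against 1164, 777 and 1553 on vehicle arrays 1 to 3. Its lowest ligand value lay just above its highest vehicle value, so that the groups did not overlap. The means were 2045 ± 497 with the ligand and 1165 ± 388 with vehicle (SD, n = 3 per group). The log2 difference was 0.83 ± 0.29 (SE), a 1.78-fold ratio, at an unadjusted p under 0.05 and limma's adjusted p = 0.829. The difference was 0.57 without vehicle array 2 and 1.06 without vehicle array 3. MANF, a small secreted ER protein that stabilises BiP with its clients, had signals of 14879.7, 10151 and 8915 on ligand arrays 1 to 3, against 6043, 9488 and 7897 on vehicle arrays 1 to 3. Ligand array 1 stood highest for MANF and the other ligand arrays lay among or near the vehicle arrays. Its log2 difference of 0.52 ± 0.24 (SE) came to 0.31 without ligand array 1.

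HYOU1, the exchange factor that recharges BiP with ATP, had signals of 7147, 3786 and 4289 on ligand arrays 1 to 3, against 3398, 3413 and 5443 on vehicle arrays 1 to 3. The highest value was again on ligand array 1, followed by vehicle array 3, and the log2 difference of 0.29 ± 0.28 (SE) was 0.017 without ligand array 1. CRELD2, a resident ER protein that is induced strongly by ER stress, had signals of 1875, 875 and 1030.4 on ligand arrays 1 to 3, against 714, 1465 and 1860.3 on vehicle arrays 1 to 3. Ligand array 1 and vehicle array 3 were nearly level at the top for CRELD2 and vehicle array 1 was lowest. The groups overlapped, and the log2 difference of -0.067 ± 0.39 (SE) was -0.46 with vehicle array 1 left out and 0.22 with vehicle array 3 left out.

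The 3 Hsp40 cochaperones of BiP differed in direction. DNAJB11 and DNAJC3, which bring clients to BiP, had log2 differences of 0.30 ± 0.21 (SE) and 0.35 ± 0.21 (SE), with the highest signal of each on ligand array 1. DNAJB9, the Hsp40 that holds IRE1 in its inactive form, had signals of 1245, 1421 and 1815 on ligand arrays 1 to 3, against 2141, 1629 and 2766 on vehicle arrays 1 to 3. Ligand arrays 1 and 2 were the lowest of the 6 for DNAJB9, and ligand array 3 lay between the lowest and the middle vehicle array. The log2 difference of DNAJB9 was -0.52 ± 0.25 (SE), the most negative among the tested members, at limma's adjusted p = 0.88. The other probe sets of DNAJB9 went the other way, at 0.22 ± 0.30 (SE) and 0.56 ± 0.38 (SE).

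On their brightest probe sets, the lectin chaperones and the enzymes of disulfide bonds were all on 1 side. There 7 of 7 genes had a positive log2 difference, from 0.10 for P4HB to 0.57 for PDIA3, with a median of 0.28. Without ligand array 1 the median was 0.17, and P4HB turned. On the next brightest probe set CANX, P4HB and ERO1B were lower with the ligand, at -0.26, -0.16 and -0.029. CALR, PDIA3, PDIA4 and PDIA6 were higher on theirs. Dimmer tested probe sets gave -0.13 and -0.074 for PDIA6, -0.13 and 0.43 for CANX and 0.32 for P4HB. PDIA3 is the disulfide isomerase that works with calnexin and calreticulin on glycoproteins. Its signals were 33657, 27388 and 22523 on ligand arrays 1 to 3, against 20250.3, 18801 and 16624 on vehicle arrays 1 to 3. All 3 ligand arrays were above all 3 vehicle arrays, with ligand array 1 highest. The means were 27856 ± 5582 with the ligand and 18558 ± 1825 with vehicle (SD, n = 3 per group). The log2 difference of 0.57 ± 0.19 (SE), a 1.49-fold ratio, had an unadjusted p under 0.05 and limma's adjusted p = 0.829. A second, dimmer probe set of PDIA3 gave 0.14 ± 0.41 (SE).

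CALR, calreticulin, the soluble lectin chaperone and calcium store of the ER, had signals of 11446, 9151 and 9959.8 on ligand arrays 1 to 3, against 8949.8, 8020.1 and 8489 on vehicle arrays 1 to 3. The groups of CALR did not overlap, by a narrow margin between ligand array 2 and vehicle array 1. Its log2 difference was 0.26 ± 0.17 (SE), and its other tested probe sets gave 0.44 ± 0.20 (SE) and 0.16 ± 0.30 (SE), all in the same direction. CANX, calnexin, the membrane-bound lectin chaperone, had signals of 52923, 40493 and 39102 on ligand arrays 1 to 3, against 40475, 40999.8 and 36283 on vehicle arrays 1 to 3. Apart from ligand array 1, the highest, the values of CANX were interleaved, and the log2 difference of 0.16 ± 0.17 (SE) was 0.022 without ligand array 1.

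Among the remaining isomerases, PDIA4, PDIA6 and P4HB had log2 differences of 0.37 ± 0.22 (SE), 0.28 ± 0.21 (SE) and 0.10 ± 0.21 (SE), each with its highest signal on ligand array 1 and with overlapping groups. P4HB, the founding protein disulfide isomerase, came to -0.060 without that array, and PDIA6, a partner of BiP and IRE1, to 0.11. ERO1B, an oxidase that recharges the isomerases, had signals of 1159.6, 1439 and 1551 on ligand arrays 1 to 3, against 1029, 866 and 1175 on vehicle arrays 1 to 3. It was the exception in its group, with the highest value on ligand array 3, and ligand array 1 lay just under vehicle array 3. The log2 difference of ERO1B was 0.43 ± 0.23 (SE), with an interval of -0.085 to 0.94, and its second probe set gave -0.029 ± 0.30 (SE).

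The 2 members of the translocation machinery were SEC61B, a subunit of the channel through which new chains enter the ER, and SSR1, a subunit of the complex beside that channel. Signals of SEC61B were 46663, 32443 and 27712 on ligand arrays 1 to 3, against 29403, 29662 and 29121 on vehicle arrays 1 to 3. The vehicle arrays of SEC61B lay close together, and ligand array 1 stood far above them while ligand array 3 was the lowest of all. Its log2 difference was 0.24 ± 0.20 (SE), or 0.029 without ligand array 1. SSR1 differed by 0.063 ± 0.20 (SE), and its 5 tested probe sets split, 3 upward and 2 downward. The median of the pair was 0.15, or 0.035 without ligand array 1 and 0.30 without ligand array 3.

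A single animal carried much of the upper end of the folding genes. Ligand array 1 held the highest signal for 12 of the 16 genes in the first pair of role groups, or 75%, where it held the highest signal for 18.6% of all tested genes. Among the 1062 genes at least as bright as the middle of the folding and translocation members, its share was 27.1%. The median of the 16 genes, as a log2 value minus the mean of the 6 arrays, was 0.36 on ligand array 1, 0.085 on ligand array 2 and -0.043 on ligand array 3, against -0.10, -0.14 and -0.069 on vehicle arrays 1 to 3. Ligand array 3 lay close to the vehicle arrays, and the distance between ligand arrays 1 and 3 was larger than that between the groups. With all arrays 14 of the 16 were higher with the ligand, at a median log2 difference of 0.28. Without ligand array 1, 11 of the 16 were higher, at a median of 0.12. The pair of role groups was joined after the values had been seen, so these figures are a description.

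**Figure D2:**
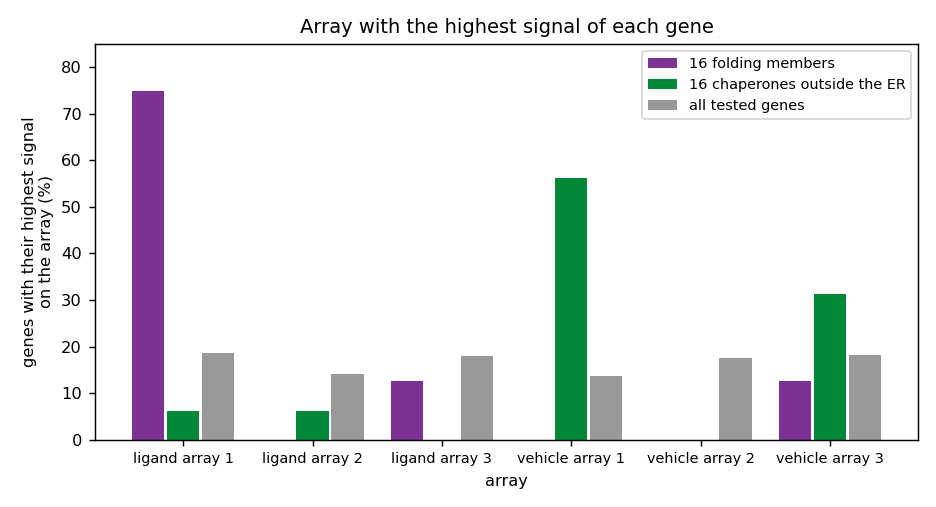
Bars give, for each of the 6 arrays, ligand arrays left of vehicle arrays, the percent of genes whose highest signal lies on that array, for the 16 folding genes, for 16 chaperones outside the ER and for all tested genes. Ligand array 1 holds 75% of the folding genes, vehicle array 1 holds 56.2% of the chaperones outside the ER, and all tested genes are spread between 13.6% and 18.6%.

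ER-associated degradation pulls misfolded proteins back to the cytosol for destruction. Of its 6 measured members 4 were higher with the ligand and 2 lower. Their median log2 difference was 0.15, or 0.027 without vehicle array 3 and 0.25 without ligand array 3. HERPUD1, a membrane scaffold of the degradation complex and a sensitive target of the response, had signals of 4482, 5256 and 4541 on ligand arrays 1 to 3, against 3464, 3750.2 and 3989.6 on vehicle arrays 1 to 3. The groups of HERPUD1 did not overlap, and here ligand array 2, not ligand array 1, was highest. The log2 difference was 0.35 ± 0.18 (SE), a 1.27-fold ratio, at limma's adjusted p = 0.88, and it stayed between 0.27 and 0.40 whichever array was left out. The second probe set of HERPUD1 gave -0.088 ± 0.32 (SE).

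SEL1L, the partner that stabilises the ligase SYVN1, had a log2 difference of 0.0073 ± 0.25 (SE), which was -0.23 with vehicle array 2 left out and 0.21 with vehicle array 1 left out. EDEM1, the mannosidase-like protein that marks glycoproteins for removal, had signals of 898, 866 and 679 on ligand arrays 1 to 3, against 790.2, 873 and 408 on vehicle arrays 1 to 3. Vehicle array 3 was low for EDEM1 and the other 5 arrays lay together, so the log2 difference of 0.29 ± 0.31 (SE) was -0.039 without vehicle array 3. The derlins are membrane proteins of the exit route. DERL1 had a log2 difference of 0.32 ± 0.22 (SE) and DERL2 of -0.0047 ± 0.22 (SE).

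DERL3, a derlin induced by the IRE1 branch, had signals of 92.9, 491 and 527 on ligand arrays 1 to 3, against 389.7, 299.8 and 439 on vehicle arrays 1 to 3. Ligand array 1 was far below the other 5 arrays, while ligand arrays 2 and 3 were the highest 2 values. The log2 difference of -0.32 ± 0.55 (SE) was 0.44 without ligand array 1, so its direction rested on that animal. A second tested probe set of DERL3 had its highest signal on ligand array 1 and a log2 difference of 0.39 ± 0.33 (SE).

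The sensors and their transcription factors went both ways, with 2 of 5 higher and a median log2 difference of -0.069, which was -0.23 without vehicle array 2 and 0.045 without vehicle array 1. EIF2AK3, which encodes PERK, had signals of 234, 431 and 488 on ligand arrays 1 to 3, against 203, 189.7 and 108 on vehicle arrays 1 to 3. Each ligand array was above each vehicle array for EIF2AK3, although ligand array 1 was close to vehicle arrays 1 and 2. The means were 385 ± 133 with the ligand and 167 ± 51.8 with vehicle (SD, n = 3 per group). The log2 difference of 1.11 ± 0.40 (SE), a 2.16-fold ratio, was the most positive among the members. It had an unadjusted p under 0.05 and limma's adjusted p = 0.835. These signals were dim, and a second probe set, below the filter, had 122, 118 and 20.3 with the ligand and 116, 172 and 5.94 with vehicle. ERN1, which encodes IRE1, had signals of 1100.2, 3172 and 2442 on ligand arrays 1 to 3, against 2138, 3072 and 3079.9 on vehicle arrays 1 to 3. Ligand array 1 was the lowest of the 6 for ERN1 and ligand array 2 the highest, and the log2 difference of -0.41 ± 0.36 (SE) was 0.030 without ligand array 1.

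ATF6 was read by 4 tested probe sets that did not give 1 answer. The brightest, which stood for the gene, had signals of 3139, 3767 and 3238 on ligand arrays 1 to 3, against 3152, 2316 and 3196 on vehicle arrays 1 to 3, with overlapping groups and a log2 difference of 0.24 ± 0.21 (SE). The second brightest had 67.8, 503 and 197 on ligand arrays 1 to 3, against 1138, 2633 and 1037 on vehicle arrays 1 to 3. On that probe set the highest ligand value was below the lowest vehicle value, and ligand array 1 was far lowest. Its log2 difference was -2.81 ± 0.59 (SE), 7.03-fold lower with the ligand, at rank 43 of the 27304 tested probe sets by p and limma's adjusted p = 0.456. The remaining 2 gave 0.19 ± 0.39 (SE) and -0.15 ± 0.34 (SE), less than their errors. The second brightest kept its direction whichever array was left out, at -3.46 without ligand array 2 and -2.15 with ligand array 1 left out. It was named after its values had been seen, and no direction for ATF6 can be given from these probe sets.

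**Figure D3:**
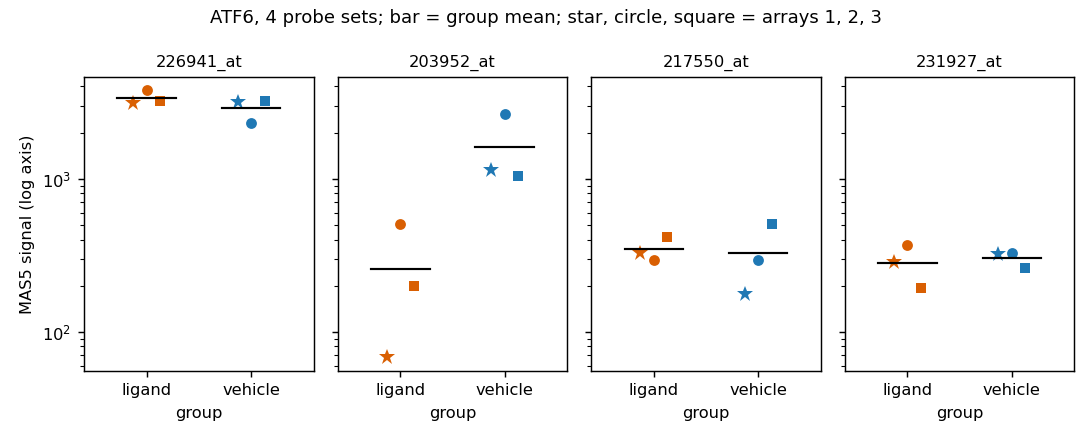
MAS5 signals of the 4 ATF6 probe sets on a log axis, ligand arrays left and vehicle arrays right, with a bar at each group mean and the star, circle and square for arrays 1, 2 and 3. The groups are separate on the second panel alone, the second brightest probe set, and overlap on the other 3 probe sets. The second brightest is 7.03-fold lower with the ligand by its log2 difference of -2.81 turned back to a ratio, not by the ratio of the bars.

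XBP1, the transcription factor made from the messenger that IRE1 splices, had signals of 512, 812 and 603 on ligand arrays 1 to 3, against 791, 621 and 939.6 on vehicle arrays 1 to 3. The groups overlapped, with the highest value on vehicle array 3 and the lowest on ligand array 1, and the log2 difference was -0.29 ± 0.27 (SE) with an interval of -0.89 to 0.32. Whether its probes separate the spliced from the unspliced form is not given in the sources used here. ATF4, the factor translated when PERK is active, had signals of 9318, 9843 and 8286 on ligand arrays 1 to 3, against 11213, 7618 and 10275 on vehicle arrays 1 to 3. Its values were mixed between the groups, and the log2 difference was -0.069 ± 0.19 (SE), with an interval of -0.50 to 0.36.

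Genes downstream of PERK and ATF4 showed no common direction either: 2 of the 5 tested were higher and 3 lower, with a median of -0.11, or 3 of 6 higher with ASNS counted. The median was 0.041 without ligand array 2 and 0.16 without vehicle array 2. ATF3, a factor induced by many stresses, had signals of 254, 409 and 395 on ligand arrays 1 to 3, against 513, 513 and 433 on vehicle arrays 1 to 3. It was the member whose ligand arrays all lay below its vehicle arrays, with ligand array 1 lowest. The log2 difference was -0.47 ± 0.29 (SE), 1.39-fold lower, at limma's adjusted p = 0.895, and a second probe set, with overlapping groups, gave 0.38 ± 0.52 (SE). DDIT3, which encodes the death-promoting factor CHOP, had signals of 949, 783 and 1416 on ligand arrays 1 to 3, against 1059.5, 1019.6 and 1275 on vehicle arrays 1 to 3. Both the highest and the lowest of the 6 values of DDIT3 were in the ligand group, and the log2 difference was -0.13 ± 0.27 (SE), with an interval of -0.72 to 0.46.

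TRIB3, a pseudokinase that CHOP and ATF4 induce and that curbs insulin signalling in liver, had signals of 1929, 2143 and 2327 on ligand arrays 1 to 3, against 1970.0, 3340.0 and 1843 on vehicle arrays 1 to 3. Vehicle array 2 stood above the other 5, and the log2 difference of -0.11 ± 0.26 (SE) was 0.16 without it. CHAC1, an enzyme that degrades glutathione and a target of ATF4, had signals of 409.7, 286 and 383 on ligand arrays 1 to 3, against 204, 719 and 99.4 on vehicle arrays 1 to 3. The vehicle group of CHAC1 held both the highest and the lowest value, and the log2 difference of 0.49 ± 0.57 (SE) was -0.11 with vehicle array 3 left out and 1.22 with vehicle array 2 left out. PPP1R15A, the phosphatase subunit that ends the translation block, had a log2 difference of 0.10 ± 0.26 (SE), and its second probe set 0.88 ± 0.51 (SE). ASNS, below the filter, had 47.8, 7.89 and 82.5 with the ligand and 8.04, 35.3 and 22.5 with vehicle.

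Several members had more than 1 probe set, and these did not always point the same way. For 22 members with at least 2 tested probe sets, all pointed in 1 direction for 8, or 36.4%, where the share was 45.9% over the 5635 such genes of the array. Over the 74 tested probe sets of members, 4 had an unadjusted p under 0.05, a share near the 5.58% of all tested probe sets: those of SDF2L1, PDIA3 and EIF2AK3 above and the second brightest of ATF6. With the next brightest probe set in place of the brightest, 12 of 22 members were higher with the ligand, at a median of 0.10. With all tested probe sets of a gene averaged, those below the filter left out, 26 of 34 were higher, at a median of 0.093. The brightest probe sets of 4 members, HSP90B1, CALR, PDIA6 and DERL3, carry the suffix x, which marks probes that can also match other transcripts.

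Other genes of the same machinery were read from lists written down by function. Of 20 tested genes of ER folding outside the members, 13 were higher and 7 lower with the ligand. The median log2 difference was 0.12. MLEC, malectin, a lectin that binds early glycoproteins, had signals of 3982, 3096 and 3387 on ligand arrays 1 to 3, against 2550.2, 2365 and 2870.0 on vehicle arrays 1 to 3, with groups that did not overlap and a log2 difference of 0.42 ± 0.20 (SE). PPIB, a proline isomerase of the ER, differed by 0.34 ± 0.19 (SE), DNAJC10, a reductase that helps degradation, by 0.66 ± 0.36 (SE), and UGGT1, which senses the folding of glycoproteins, by 0.61 ± 0.37 (SE). Ligand array 1 held the highest signal for 10 of the 20. Without vehicle array 1, 10 of them were higher, with a median of 0.016, and without ligand array 1 the median was 0.060.

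Of 23 tested genes of translocation and glycosylation, 16 were higher and 7 lower, with a median of 0.15, and ligand array 1 was highest for 16 of them, or 69.6%. Without that array 13 of the 23 were higher, at a median of 0.021, and without ligand array 3 the median was 0.28. RPN2, a subunit of the enzyme that attaches glycans, had signals of 18632, 13512 and 12538 on ligand arrays 1 to 3, against 12439, 12319.8 and 8857 on vehicle arrays 1 to 3. Its groups were apart by a narrow margin between ligand array 3 and vehicle array 1. The log2 difference of RPN2 was 0.41 ± 0.21 (SE), on a probe set with the suffix x. SSR3, SEC11C and TRAM1, which serve the channel and signal peptide cleavage, differed by 0.34 ± 0.20 (SE), 0.34 ± 0.23 (SE) and 0.31 ± 0.23 (SE), each highest on ligand array 1. Of 18 further genes listed with ER-associated degradation 13 were higher and 5 lower, with a median of 0.073, but 9 of the 18 were higher without ligand array 1, at a median of 0.024. Over the other omissions the median lay between 0.028 (vehicle array 3) and 0.14 (ligand array 2). UBXN4, a membrane anchor for the extracting ATPase, had signals of 5566, 4576 and 5949.5 on ligand arrays 1 to 3, against 2905, 3894 and 3723 on vehicle arrays 1 to 3. Its groups did not overlap, and its log2 difference of 0.61 ± 0.20 (SE) had an unadjusted p under 0.05 and limma's adjusted p = 0.829. VCP, the extracting ATPase itself, differed by 0.26 ± 0.21 (SE), ERLEC1, a lectin of the same route, by 0.22 ± 0.18 (SE), and TRAM2, a relative of TRAM1 that is not a degradation factor, by -0.37 ± 0.30 (SE). With TRAM2 left out, 13 of 17 were higher, at a median of 0.082.

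Other sensors and regulators were lower in 12 of 19 cases, with a median of -0.059, but without ligand array 3 11 of the 19 were higher, at a median of 0.019. MBTPS2, the protease that makes the second cut in ATF6 and in the sterol-regulated factors, had signals of 1689.7, 1903 and 1834 on ligand arrays 1 to 3, against 3700.4, 2265 and 2393 on vehicle arrays 1 to 3. Every ligand array was below every vehicle array for MBTPS2, with vehicle array 1 far above the rest, and the log2 difference was -0.58 ± 0.23 (SE) at an unadjusted p under 0.05 and limma's adjusted p = 0.873. EIF2S1, the translation factor that PERK phosphorylates, differed by -0.40 ± 0.23 (SE), and CREB3, a membrane-bound relative of ATF6, by -0.44 ± 0.25 (SE), both also with ligand arrays all below vehicle arrays. EIF2AK4, a kinase that acts on the same translation factor when amino acids are short, differed by -0.92 ± 0.45 (SE), with overlapping groups.

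In the list of ATF4 targets and amino acid response genes 11 of 23 were higher and 12 lower, with a median of -0.033, which ran from -0.11 with vehicle array 2 left out to 0.089 with vehicle array 3 left out. CTH, which makes cysteine and hydrogen sulfide, had signals of 2528, 4279.9 and 2181 on ligand arrays 1 to 3, against 11089, 3721 and 6105 on vehicle arrays 1 to 3. Its vehicle arrays varied widely and overlapped the ligand group, and its log2 difference was -1.13 ± 0.38 (SE) at an unadjusted p under 0.05 and limma's adjusted p = 0.829. SLC3A2, a chain of amino acid transporters, differed by -0.48 ± 0.22 (SE) and WARS1, a transfer RNA synthetase, by 0.53 ± 0.26 (SE), with groups apart in opposite directions. SLC38A2, a glutamine carrier, differed by 0.47 ± 0.24 (SE), on a probe set with the suffix x.

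**Figure D4:**
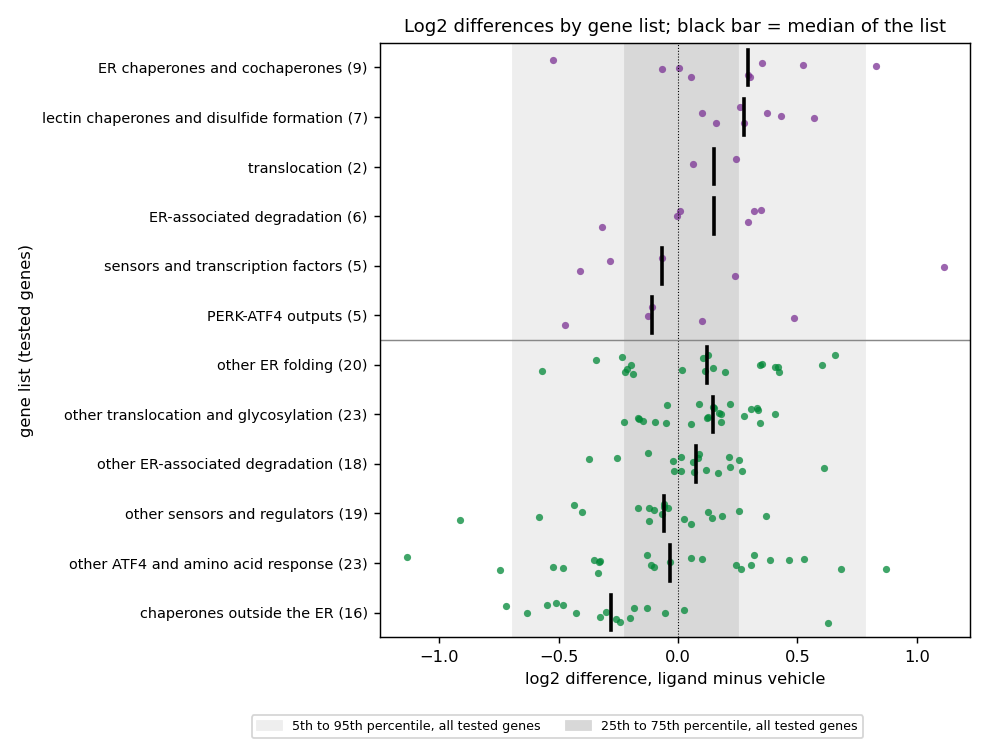
Each point is a tested gene, placed by its log2 difference, ligand minus vehicle, with members in purple above and the other lists in green below; the black bar is the median of a list and the grey bands hold the middle 50% and 90% of all tested genes. The medians of the folding members lie to the right of 0, at 0.29 and 0.28, and that of the chaperones outside the ER to the left, at -0.28, with genes of each list on both sides except for lectin chaperones and disulfide enzymes and for translocation.

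Chaperones outside the ER were listed for contrast, as heat shock proteins and chaperonins of the cytosol and mitochondria with the heat shock factor HSF1. Of the 20 genes listed, HSPA1A, HSPA1B, HSPA8 and TCP1 had no probe set of their own and were not read. In this list 14 of 16 tested genes were lower with the ligand, at a median log2 difference of -0.28. The 2 that were higher were CRYAB, a small heat shock protein, at 0.63, and CCT2, a chaperonin subunit, at 0.025. DNAJB1, the main heat-inducible Hsp40 of the cytosol, had signals of 985, 949 and 1051 on ligand arrays 1 to 3, against 1857, 1191 and 2029 on vehicle arrays 1 to 3. Its ligand arrays were all below its vehicle arrays and varied little, and its log2 difference was -0.72 ± 0.25 (SE) at an unadjusted p under 0.05 and limma's adjusted p = 0.829. HSP90AB1, the constitutive Hsp90 of the cytosol, had signals of 14262, 9707 and 11736 on ligand arrays 1 to 3, against 19695, 13175 and 18128 on vehicle arrays 1 to 3, with overlapping groups and a log2 difference of -0.51 ± 0.21 (SE). DNAJB4, another Hsp40, differed by -0.55 ± 0.25 (SE) and HSPB1, a small heat shock protein, by -0.63 ± 0.36 (SE). The highest signals of this list lay on vehicle array 1 for 9 genes and on vehicle array 3 for 5. Over the alternatives that left out an array, between 0 and 3 of the 16 were higher, with the median between -0.46 without vehicle array 2 and -0.18 without vehicle array 1. No gene of the list passed with adjustment, and the difference between the ER and non-ER chaperones was not tested.

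Cell composition and RNA quality were read beside these values. Kupffer cells are the macrophages that live in liver. Of 10 macrophage and Kupffer cell markers 9 were higher with the ligand, and their summed signal was 20074 to 25457 with the ligand and 11704 to 15715 with vehicle, without overlap. Of 8 markers of stellate cells and fibroblasts 6 were higher, with a summed signal of 32567 to 45550.4 with the ligand and 16941 to 26601 with vehicle, also without overlap. Most of that sum came from DCN, whose groups overlapped, and COL3A1, whose groups were apart upward, while COL1A1 was lower on each ligand array than on any vehicle array. Hepatocyte markers, 6 of 10 higher, summed to 850054 to 937441 with the ligand and 787528 to 933324 with vehicle, with overlap. Plasma cells carry a very active ER, and of their 9 measured markers, which include XBP1, 3 were higher and 6 lower. Their summed signal was 5574 to 10264 with the ligand and 6159.8 to 9375 with vehicle, most of it from SDC1, which hepatocytes also express. JCHAIN, the joining chain of secreted antibodies, was near background at 45.4, 34.2 and 8.95 with the ligand and 74, 18.9 and 62.9 with vehicle, and TNFRSF17 and POU2AF1 were also below the filter, while no marker was at 0. MZB1 was the 1 plasma cell marker with groups apart, at 41.3, 181 and 79.0 with the ligand and 202, 249 and 239 with vehicle. Its log2 difference was -1.26 ± 0.56 (SE), at limma's adjusted p = 0.88. B cell markers were higher for 3 of 4, those of T and NK cells for 3 of 6, those of neutrophils for 1 of 5, those of endothelium for 7 of 8, with VWF at -3.39 ± 0.47 (SE), and those of cholangiocytes for 1 of 5. Some of these markers were below the filter. Among tested markers, 9 of 9 were higher for macrophages, 2 of 6 for plasma cells, 2 of 3 for B cells and 2 of 3 for T and NK cells. The count was 1 of 4 for neutrophils and 1 of 3 for cholangiocytes. The part of cell composition in the differences of the ER genes was not tested.

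The log2 ratio of the signal at the 3' end to that at the 5' end of ACTB, a gauge of RNA integrity, was 2.62, 2.65 and 4.0 on ligand arrays 1 to 3, against 2.15, 2.50 and 3.06 on vehicle arrays 1 to 3. Ligand array 3 had the largest ratio. The group means were 3.09 ± 0.79 with the ligand and 2.57 ± 0.46 with vehicle (SD, n = 3 per group). An exact two-sided permutation test of these ratios gave p = 0.4, where the smallest possible p with 3 against 3 is 0.1. For GAPDH the ratios were 1.38, 1.17 and 2.05 with the ligand and 0.991, 1.32 and 1.70 with vehicle, at exact permutation p = 0.6. In the ligand group, array 3 had the highest ACTB ratio and the lowest median of the folding genes. Array 1 had the lowest ACTB ratio there, near that of array 2, and the highest median. For GAPDH the lowest ligand ratio was on array 2. Among vehicle arrays the order differed: array 3 had the highest ratio on both controls and the highest median, -0.069. Vehicle array 1 had the lowest ratio on both, with a median of -0.10. The part of RNA quality in the differences was not tested.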

How the data were processed

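Liver RNA labelled with biotin was hybridised to a human Affymetrix array, 1 animal per array. Per the submitters' processing notes, the deposited intensity values came from MAS5; its version and scaling target are not given in the sources used here. On every array the trimmed mean of signals was 500.1. Groups were read from the array labels. Signals were turned into log2(signal + 16), a scale that understates differences at low signal. Fold values are the log2 differences turned back to ratios, not ratios of mean signals. Left out were 62 control probe sets and those with a mean signal under the median, 129. The remaining 27304 of 54675 were fitted with lmFit and eBayes with an intensity trend (limma 3.58.1, R 4.3.3) over the 6 arrays with no covariate, two-sided, and p-values were adjusted by Benjamini-Hochberg over all of them, with a threshold of 0.05. Intervals are 95% intervals from moderated standard errors. The number of animals limits the precision. Each p-value sets the group difference against the spread between arrays of 1 animal each, moderated by the spread of other probe sets.

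The members and lists were chosen with earlier results of these data known. All 36 members are named, as are up to 4 genes of each further list by smallest p and SREBF1, ABCG1 and MYLIP for the treatment. CRYAB, CCT2 and single cell markers were named after their values were seen. Lists are described by counts and medians, with no set test. Same-numbered arrays of the groups did not deviate together (r = 0.04, -0.031 and 0.07 over probe sets), so the numbers were not taken as pairs. Alternatives were other pseudocounts, normalizations, filters, spread models, array weights, a threshold of 0.10, a replicate block, other probe sets and leaving out each array. Figures were made in matplotlib 3.10.9 under Python 3.11.15.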

Additional observations from a re-analysis of the deposited data

How the results depend on the processing

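With 3 animals a group, standard errors of 0.16 to 0.57 left small changes of the ER genes undetectable here. No member passed at adjusted p under 0.05 under any alternative; the lowest adjusted p was 0.254, for the second brightest probe set of ATF6 without ligand array 2, and for the brightest probe sets 0.6, for SDF2L1 with a replicate block. Over the whole array 0 probe sets passed in every alternative but 2: 1 passed without ligand array 2 and 1 without vehicle array 2, so leaving out an array gave 0 to 1. With a replicate block 0 passed, 24 of 34 members were higher and the median was 0.20, as without it, and the block changed no call. The median over the members was 0.15 after quantile normalization, 0.16 with a filter at the 75th percentile, 0.093 when a gene's probe sets were averaged and 0.10 on the next brightest probe set, with 12 of 22 members higher there. On the next brightest probe set the medians were 0.14 for 3 ER chaperones, 0.14 for lectin chaperones and disulfide formation, -0.34 for translocation, -1.41 for the sensors, where 2 genes remain, and 0.38 for PERK and ATF4 outputs. With averaged probe sets they were 0.069 for translocation, 0.093 for ER-associated degradation, -0.21 for the sensors and -0.047 for PERK and ATF4 outputs, and with the 75th percentile filter 0.29 for ER-associated degradation and -0.18 for the sensors. The alternatives for the other gene lists and for the second ATF6 probe set, and leaving out TRAM2, were chosen after seeing the data. Leaving out 1 array gave medians of 0.086 to 0.27 for the measured members and 0.017 to 0.38 for ER chaperones and cochaperones. The direction turned round on the next brightest probe set for DNAJB9 0.22, CANX -0.26, P4HB -0.16, ERO1B -0.029, SEC61B -0.23, SSR1 -0.45, HERPUD1 -0.088, DERL1 -0.011, DERL2 0.19, DERL3 0.39, ATF6 -2.81 and ATF3 0.38, with averaged probe sets for DNAJB9 0.086, DERL2 0.091, DERL3 0.037 and ATF6 -0.63, and with median centring for HSPA5 -0.017 and SEL1L -0.014. It turned for at least 1 omitted array in 14 members, whose log2 differences over the 6 omissions ran as follows: HSPA5 -0.048 to 0.083, HSP90B1 -0.066 to 0.13, CRELD2 -0.46 to 0.22, P4HB -0.060 to 0.29, SSR1 -0.045 to 0.19, SEL1L -0.23 to 0.21, EDEM1 -0.039 to 0.49, DERL2 -0.18 to 0.13, DERL3 -0.72 to 0.44, ERN1 -0.73 to 0.030, ATF4 -0.23 to 0.045, DDIT3 -0.36 to 0.058, TRIB3 -0.27 to 0.16 and CHAC1 -0.11 to 1.22. Other pseudocounts, quantile normalization, filters, spread models and array weights turned no member. Why a probe set or an omitted array turned a direction was not tested.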
